A study of Mus musculus with 54 samples.

Results

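Esm1, Slc6a2, Aldh1a2, Grem1, Sulf1 and Ccl24 are 6 of the 23481 genes measured by RNA-seq in mouse 4T1 material. They were chosen by their values in these libraries, as genes higher in lung metastases than in orthotopic tumors and near 0 in every cultured clone. Those 2 properties are therefore given below as a description, without a test. The 6 had been grouped as stromal transcripts confined to lung metastases. "Confined" goes further than the values, since each had reads in tumor libraries and in clones, and which cells made the transcripts was not measured.

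4T1 is a mouse mammary carcinoma line that spreads from the mammary gland to the lung. The specimens were 2 lung metastases, Lung_1 and Lung_2, and 2 tumors grown at the orthotopic site, Tumor_1 and Tumor_2. The other samples were 23 clones, each started from a sorted single cell and kept in culture, of which E and T were labelled intravasating, meaning able to enter blood vessels, and 21 non-intravasating. Every specimen and clone had 2 libraries, A and B. The labels give the same source line and culture medium for specimens and clones, name no mouse strain, age or time, and do not say whether host cells were removed or the specimens were cultured. A clone holds no host cells, so its value is the level of the transcript in cultured 4T1 cells.

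Depth, as recovered reads, was 16327693 to 20368740 per lung library, 12183058 to 17369960 per tumor library and 8849257 to 31609870 per clone library. The A libraries of the lung metastases stood apart, with reads on 20278 and 19868 genes, against 16604 and 16972 in the B libraries, 16175 to 17300 in the tumors and 14130 to 16807 in the clones. Levels below are normalized counts, which are reads corrected for library size. Differences are on the deposited log2 scale, which compresses low values.

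The 6 proteins act outside the cell or at its edge, apart from 1 enzyme. Esm1 encodes endocan, a proteoglycan secreted by endothelium and prominent in tip cells of sprouting vessels. Grem1 encodes gremlin 1, a secreted protein that binds bone morphogenetic proteins (BMPs) and keeps them from their receptors. Sulf1 encodes an extracellular sulfatase that removes 6-O-sulfate groups from heparan sulfate, the sugar chain that holds many growth factors at the cell surface. Ccl24 encodes eotaxin-2, a chemokine that attracts eosinophils through the receptor CCR3. Slc6a2 encodes the noradrenaline transporter, which clears noradrenaline from the space around sympathetic nerve endings and is also found on lung endothelium. Aldh1a2 encodes a cytosolic retinaldehyde dehydrogenase that makes retinoic acid from retinaldehyde, a main source of retinoic acid in embryonic mesoderm and mesothelium.

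The genes lie on 6 chromosomes of the mouse build mm10. The GENCODE annotation puts Esm1 at chr13:113209659-113218098 on the plus strand, Slc6a2 at chr8:92960079-93001667 on the plus strand and Aldh1a2 at chr9:71215789-71296243 on the plus strand. Grem1 lies at chr2:113746164-113758646 on the minus strand, Sulf1 at chr1:12692277-12861192 on the plus strand and Ccl24 at chr5:135569937-135573049 on the minus strand. Their annotated exons cover 2097 bases in Esm1, 6290 in Slc6a2, 2264 in Aldh1a2, 4148 in Grem1, 11294 in Sulf1 and 1295 in Ccl24.

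Among the secreted members, Esm1 had the highest mean level in lung metastases per length of exon. It had 153 and 204 normalized counts in libraries A and B of Lung_2 and 63.8 and 31.9 in those of Lung_1, against 1.94 and 8.18 in Tumor_2 and 8.54 and 9.02 in Tumor_1. All 4 lung libraries stood above all 4 tumor libraries, and the Lung_2 libraries above the Lung_1 libraries. Over the specimens it averaged 113 ± 92.3 counts in lung metastases and 6.92 ± 2.63 in tumors (SD, n = 2 each), a difference of 1.61 on the log2 scale with a standard error of 0.32.

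Grem1, the BMP antagonist, had 103 and 84.9 counts in Lung_2 and 14.4 and 10.4 in Lung_1, against 1.94 and 4.67 in Tumor_2 and 0.949 and 2.71 in Tumor_1. The lowest lung library was thus above the highest tumor library, by less in Lung_1 than in Lung_2. Its mean was 53.1 ± 57.6 counts in lung metastases and 2.57 ± 1.05 in tumors (SD, n = 2 each), and the log2 difference was 1.15 with a standard error of 0.35.

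Sulf1, the heparan sulfate sulfatase, had 60.4 and 89.0 counts in Lung_2 and 15.3 and 11.1 in Lung_1, against 0 and 2.34 in Tumor_2 and 6.64 and 4.51 in Tumor_1. The groups did not overlap, but the gap was narrow, since Lung_1 and Tumor_1 were close. A library with 0 reads allows a level of up to 3 reads, which in library A of Tumor_2 is 2.91 normalized counts. The mean was 44.0 ± 43.5 counts in lung metastases and 3.37 ± 3.12 in tumors (SD, n = 2 each), a log2 difference of 1.06 with a standard error of 0.31.

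Ccl24, the eosinophil chemokine, had 48.8 and 84.9 counts in Lung_2 and 21.6 and 21.5 in Lung_1, against 1.94 and 1.17 in Tumor_2 and 0 and 0.902 in Tumor_1. No tumor library came near a lung library. Ccl24 averaged 44.2 ± 32.1 counts in lung metastases and 1.00 ± 0.781 in tumors (SD, n = 2 each), with a log2 difference of 1.30 and a standard error of 0.22.

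Slc6a2, the noradrenaline transporter at the cell surface, had 115 and 138 counts in Lung_2 and 37.7 and 37.9 in Lung_1, against 4.85 and 7.01 in Tumor_2 and 4.74 and 1.80 in Tumor_1. The libraries of each lung metastasis were close to each other and the groups were well apart. Its mean was 82.1 ± 62.6 counts in lung metastases and 4.60 ± 1.88 in tumors (SD, n = 2 each), a log2 difference of 1.47 with a standard error of 0.28.

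Aldh1a2, the enzyme of retinoic acid synthesis, had 99.3 and 109.7 counts in Lung_2 and 16.2 and 27.5 in Lung_1, against 0 and 1.17 in Tumor_2 and 0 and 1.80 in Tumor_1. Only 3 reads fell on it in the 4 tumor libraries together, against 308 in the 4 lung libraries. It averaged 63.2 ± 58.5 counts in lung metastases and 0.743 ± 0.225 in tumors (SD, n = 2 each), and the log2 difference was 1.57 with a standard error of 0.31.

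**Figure D1:**
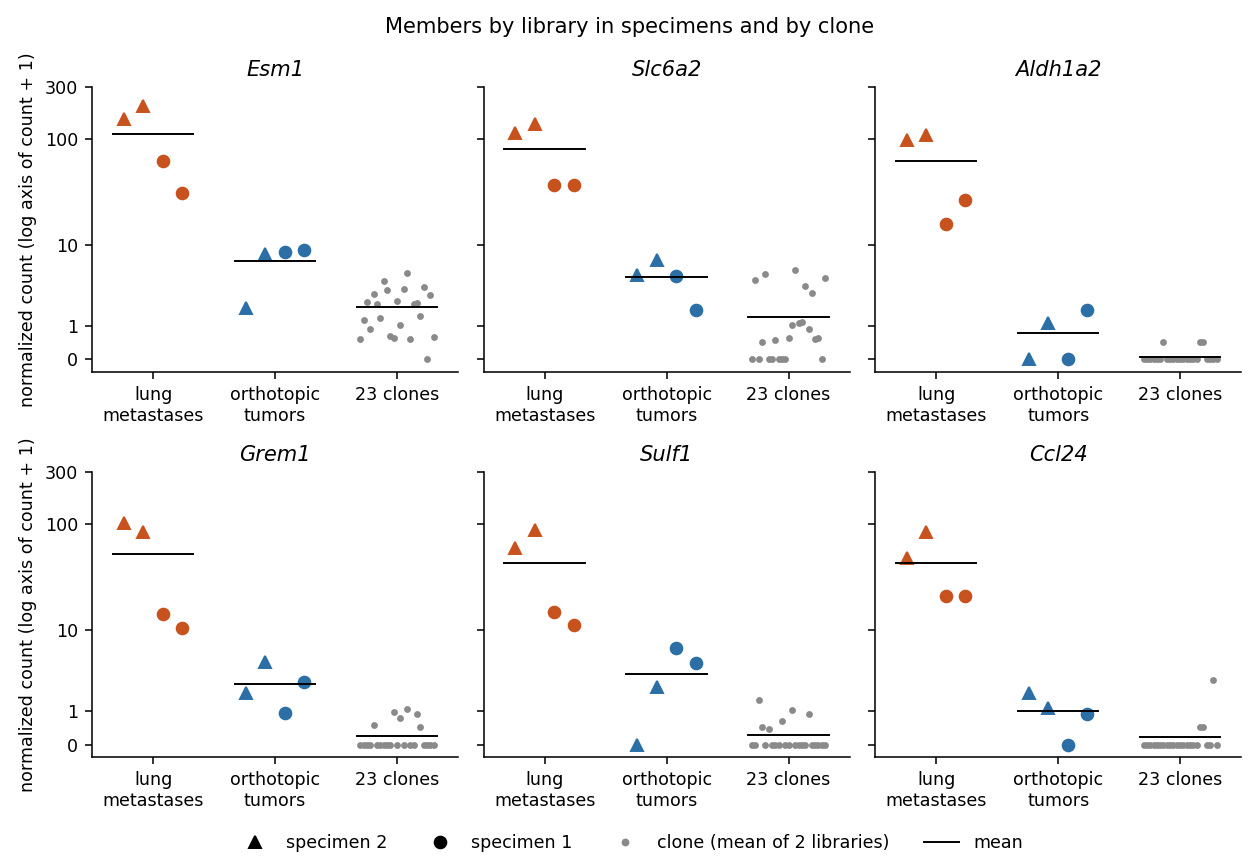
Normalized counts of the 6 genes, on a log axis of count + 1 with tick labels in counts, in 4 libraries of lung metastases (orange), 4 libraries of orthotopic tumors (blue) and 23 clones (gray, mean of 2 libraries); triangles are specimen 2, circles specimen 1, and bars the group mean. Every lung library lies above every tumor library, and the triangles of Lung_2 lie above the circles of Lung_1 for each gene. The genes were chosen as higher in lung metastases. Of 534 tested genes near 0 in the clones, 26.97% had all lung libraries above all tumor libraries, and 72.5% had a higher value in Lung_2 than in Lung_1.

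The spread of the lung group was mostly the gap between Lung_1 and Lung_2, and the SD over the 2 lung metastases was close to or above the mean for Grem1, Sulf1 and Aldh1a2. Pooled over libraries and corrected for depth, reads in lung metastases exceeded those in tumors 16.2-fold for Esm1, with an exact Clopper-Pearson 95% interval of 11.1 to 24.6. The ratio was 18.4 for Slc6a2 (11.5 to 31.3), 21.3 for Grem1 (11.4 to 44.99) and 12.6 for Sulf1 (7.36 to 23.5). Few tumor reads left it wide for Ccl24, at 44.6 (17.2 to 165), and for Aldh1a2, at 85.2 (28.9 to 415). These intervals cover counting error only, not the difference between specimens.

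In the clones, all 6 sat below their lung levels. Esm1 was the least silent, with a read in 22 of 23 clones, a median of 2.18 counts and a highest value of 5.10 in clone O. Slc6a2 had reads in 15 clones and reached 5.51 counts in clone N and 4.99 in the intravasating clone E, but 0.529 in the other intravasating clone, T. Aldh1a2 had 3 reads in the 46 clone libraries, out of 781336783 reads in all, and Grem1 had 10, Sulf1 9 and Ccl24 8. The highest clone of these 4 was S for Aldh1a2 at 0.457 counts, O for Grem1 at 1.10, C for Sulf1 at 1.53 and V for Ccl24 at 2.88.

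Tumors hold host tissue unless it was removed. Tumor levels were 7.67% of the lung mean for Sulf1, 6.12% for Esm1, 5.61% for Slc6a2, 4.84% for Grem1, 2.27% for Ccl24 and 1.18% for Aldh1a2. Against the clones, pooled tumor reads per depth were 3.34-fold for Esm1 (exact 95% interval 2.11 to 5.13) and 2.99-fold for Slc6a2 (1.67 to 5.08). The same ratio was 17.8 for Sulf1 (7.18 to 46.7), 11.5 for Grem1 (4.28 to 30.7), 11.5 for Aldh1a2 (1.53 to 85.5) and 5.73 for Ccl24 (1.26 to 21.4). The highest clone lay within the range of the 4 tumor libraries for 5 of the 6 and above it for Ccl24. None of the 6 reached the minimum level needed for the test of tumors against clones, which called 4.15% of the 13875 genes tested higher and 1.43% lower in tumors.

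Per kilobase of annotated exon, the mean normalized count in lung metastases was 53.9 for Esm1, 34.1 for Ccl24, 27.9 for Aldh1a2, 13.1 for Slc6a2, 12.8 for Grem1 and 3.89 for Sulf1. Between Lung_1 and Lung_2 the level per kilobase kept Esm1 first and Sulf1 last, with Esm1 at 22.8 in Lung_1 and Sulf1 at 1.17 there. Slc6a2 and Grem1 changed places between the 2 specimens, and the ranges of neighbors in the order overlapped throughout.

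Limma called 16.6% of the 13702 genes tested higher and 14.8% lower in lung metastases than in tumors, at an adjusted p under 0.05. All 6 genes were tested, and each passed the minimum level only through its lung libraries, so nothing is read from their calls. These counts rest strongly on 1 library: without library A of Tumor_2, 354 genes were higher and 309 lower, in place of 2280 and 2025. The median difference over all genes was 0.02.

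To place the 6 among like genes, tested genes with under 10 normalized counts in each of the 23 clones were ranked by their lung minus tumor difference. There were 534 such genes, and 28.7% of them were called higher in lung metastases. Their median difference was 0.28, and 144, or 26.97%, had all lung libraries above all tumor libraries. A gene silent in clones could enter this set only through a specimen, so the share is no test. The members held ranks 2, 3, 5, 8, 11 and 14, an order that their choice fixed.

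The genes between and beside them included Col6a3 at rank 1, a chain of type VI collagen, with 257 counts in Lung_2 and 106 in Lung_1, against 21.4 in Tumor_2 and 24.1 in Tumor_1. Values of the next genes are in the same order of specimens. Lyz2, the lysozyme of macrophages and neutrophils, had 1831 and 851 counts in the lung metastases, against 337 and 517 in the tumors. The complement genes C1qc and C1qb, made mainly by macrophages, followed at ranks 6 and 9. Thbd, which encodes the anticoagulant receptor thrombomodulin, had 147 and 25.6 counts, against 6.42 and 6.50, and Ereg, an EGF receptor ligand, had 135 and 20.3, against 10.8 and 4.60. Below Grem1 and around Sulf1 came Tnr, Wfdc17 and Pappa, of which Pappa, a protease that cleaves IGF-binding proteins, had 42.6 and 19.4 counts in the lung metastases and 2.14 and 1.90 in the tumors.

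**Figure D2:**
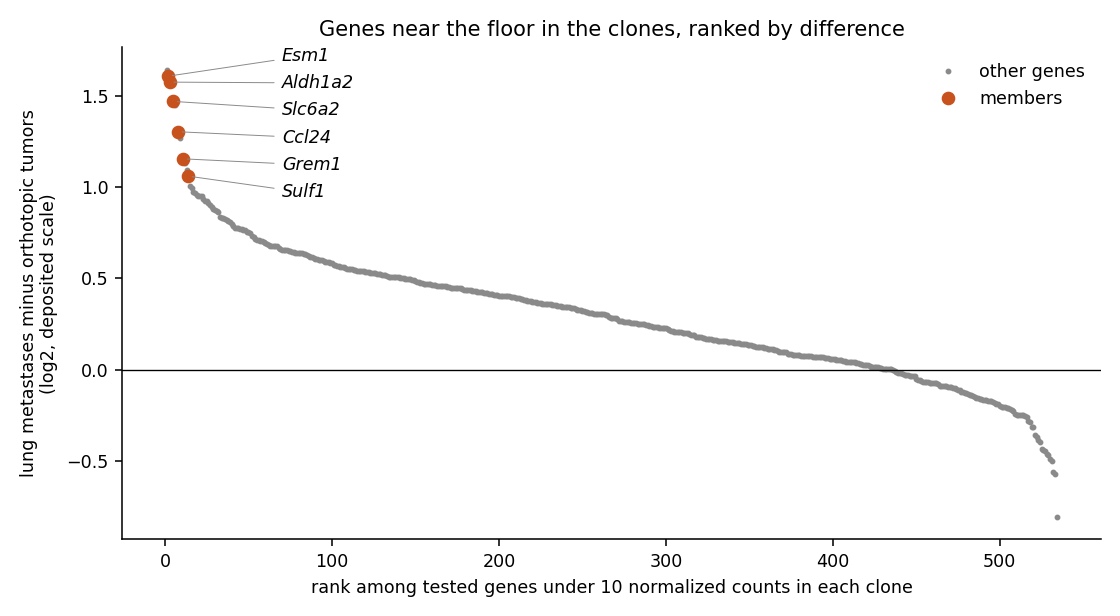
Lung minus tumor difference on the deposited log2 scale (vertical axis) of 534 tested genes with under 10 normalized counts in each clone, ordered by rank (horizontal axis), with the 6 members in orange. The members lie between rank 2 and rank 14, at differences of 1.06 to 1.61, and the median of all the genes is 0.28.

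The difference between the 2 lung metastases was not itself used to choose the genes, and it was tested. The lung level was used, and a high value in Lung_2 raises it, so the test is not independent of the choice. Thbd and Ereg, which are not members and held ranks 7 and 10 above, were also called higher in Lung_2 (limma, adjusted p = 0.00533 for each). The other genes named between and beside the members, Col6a3, Lyz2, C1qc, C1qb, Tnr, Wfdc17 and Pappa, were not called (limma, adjusted p from 0.0649 to 0.907). All 6 members were higher in Lung_2 than in Lung_1, in both libraries, and 4 of them passed: Grem1, Slc6a2, Aldh1a2 and Sulf1. Over all 13702 genes tested, limma called 0.774% higher and 0.0146% lower in Lung_2. Each member had at least 10 counts in all 4 lung libraries, so its entry into the test did not depend on Lung_2 alone. The test treats the 2 libraries of a specimen as replicates, and nothing says that they came from separate pieces or extractions, so its p-values measure the spread between libraries, which may be technical.

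Grem1 differed most, with 93.8 ± 12.5 counts in Lung_2 and 12.4 ± 2.81 in Lung_1 (SD, n = 2 libraries each), a log2 difference of 1.34 ± 0.15 (SE) with an adjusted p of 0.0101 in limma. Esm1 had 178 ± 35.7 counts in Lung_2 and 47.9 ± 22.5 in Lung_1, a difference of 1.24 ± 0.22 that missed the threshold in limma (adjusted p = 0.0546). Aldh1a2 had 104 ± 7.30 in Lung_2 and 21.8 ± 8.001 in Lung_1, a difference of 1.18 ± 0.18 (limma, adjusted p = 0.0338). The 2 libraries of Lung_1 differed most for Esm1, where A had 2.00 times the level of B.

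Sulf1 had 74.7 ± 20.2 counts in Lung_2 and 13.2 ± 2.92 in Lung_1, and its difference of 1.10 ± 0.19 passed narrowly (limma, adjusted p = 0.0462). Slc6a2 had 126 ± 16 in Lung_2 and 37.8 ± 0.111 in Lung_1, a difference of 1.02 ± 0.15 (limma, adjusted p = 0.0271). Ccl24 had 66.9 ± 25.5 in Lung_2 and 21.6 ± 0.0116 in Lung_1, and its difference of 0.76 ± 0.18 was not called (limma, adjusted p = 0.167). As ratios of mean normalized counts, Lung_2 stood 7.57-fold above Lung_1 for Grem1, 5.66-fold for Sulf1, 4.79-fold for Aldh1a2, 3.73-fold for Esm1, 3.34-fold for Slc6a2 and 3.10-fold for Ccl24.

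The direction held in all 16 alternatives for the 5 members tested in each of them and in all 15 for Ccl24, while the calls did not. Without any 1 of the 4 lung libraries, 0 of 6 members were called, with adjusted p from limma between 0.100 and 0.99956, and Igfbp5 was the only gene called among all tested. With the 4 lung libraries alone, or without either library of Tumor_2, all 6 were called, and without either library of Tumor_1 only Grem1 was. On log2(count + 1) 0 were called.

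Genes near 0 in the clones tended to the same side. Of the 534, 387, or 72.5%, had a higher value in Lung_2, with a median difference of 0.16, against 0.02 over all genes. Limma called 3.75% of them higher, against 0.774% of all genes. A gene silent elsewhere could enter this set through Lung_2 alone, so these shares are no test. Likeness to the members was measured as Pearson's r of the deposited values over the 8 specimen libraries, which share 4 specimens and the same lung and tumor gap, so these values are a description. Between members r ran from 0.904 for Sulf1 with Ccl24 to 0.980 for Slc6a2 with Ccl24.

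Among the other genes near 0 in clones, the nearest to Grem1 were Ereg (r = 0.995), Thbd (0.984) and Themis2 (0.983). Slc6a2 was nearest to Dkk3 (0.991), a secreted relative of the Wnt inhibitor dickkopf, to Timd4 (0.990), a macrophage receptor for phosphatidylserine, and to Themis2 (0.985). Aldh1a2 was nearest to Timd4 (0.992), Kctd12 (0.989) and the guidance ligand Slit3 (0.983). Esm1 had Fndc1 (0.980), Nfam1 (0.980) and Gnai1 (0.978) as its nearest genes, Sulf1 had Rac2 (0.978), Arhgap25 (0.976) and Cmklr1 (0.975), and Ccl24 had Ptgis (0.977), which encodes prostacyclin synthase, C1qc (0.977) and Gnai1 (0.975). Timd4 had 14.0 counts in Lung_2 and 2.38 in Lung_1, and 0 in both tumors.

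Markers of other cells were read beside these results, and their part in them was not tested. In bulk RNA, more cells of a type and more RNA per cell cannot be told apart. Fibroblast markers summed to 4854 and 4284 normalized counts in Lung_2 and 1599 and 1870 in Lung_1, against 745 to 935 in the tumors and 149 to 2423 in the clones. Most of that sum was Pdgfra, the receptor for platelet-derived growth factor A, which the clones also made, at up to 1756 counts. In the test of tumors against clones, 7 of 10 fibroblast markers were higher in tumors, against 4.15% of all genes, and Pdgfra was not among them. So were 4 of 9 macrophage and 2 of 7 endothelial markers, and 0 of the 3 lists' markers were lower, against 1.43%. Of those called, Col3a1, Thy1, C1qb, C1qc and Pecam1 reached the minimum level only through tumor libraries and could hardly be called lower. The shares are therefore a description. Col3a1 had 7.01 to 38.0 counts in tumor libraries and at most 1.61 in a clone (limma, adjusted p = 3.21e-09). That p-value rests mostly on the small spread among the many clones. It does not measure how repeatable the tumor level was, at 38.0 and 19.8 counts in Tumor_1 and 10.7 and 7.01 in Tumor_2. Of 8 fibroblast markers tested, 1 rose in lung metastases over tumors, Pdgfra, with 1337 to 3619 counts in lung libraries and 499.96 to 598 in tumor libraries (limma, log2 difference 1.94, adjusted p = 0.00213), and 0 fell, against 16.6% higher and 14.8% lower over all genes.

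Between the lung metastases, 6 of the 8 fibroblast markers were called higher in Lung_2, against 0.774% of all genes, with a median difference of 1.14. The collagen genes Col3a1, Col1a2 and Col1a1 led, with 205 and 192, 358 and 273, and 343 and 331 counts in the libraries of Lung_2, against 19.8 and 8.17, 38.6 and 41.6, and 44.9 and 46.1 in those of Lung_1. The adjusted p from limma was 0.0045 for Col3a1 and Col1a2 and 0.00569 for Col1a1. Pdgfra, Dcn and Thy1 were the other markers called, and Thy1 had 29.8 and 31.3 counts in Lung_2 against 0.898 and 2.23 in Lung_1. In the tumors Thy1 stood at 17.1 to 26.2 counts, above Lung_1, and Col1a1 at 33.4 to 74.0, around Lung_1, whereas Pdgfra was higher in Lung_1, at 1337 and 1648 counts, than in any tumor library. Igfbp5, an IGF-binding protein named here after its values were seen, had 236 and 273 counts in Lung_2 and 0.898 and 2.23 in Lung_1.

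**Figure D3:**
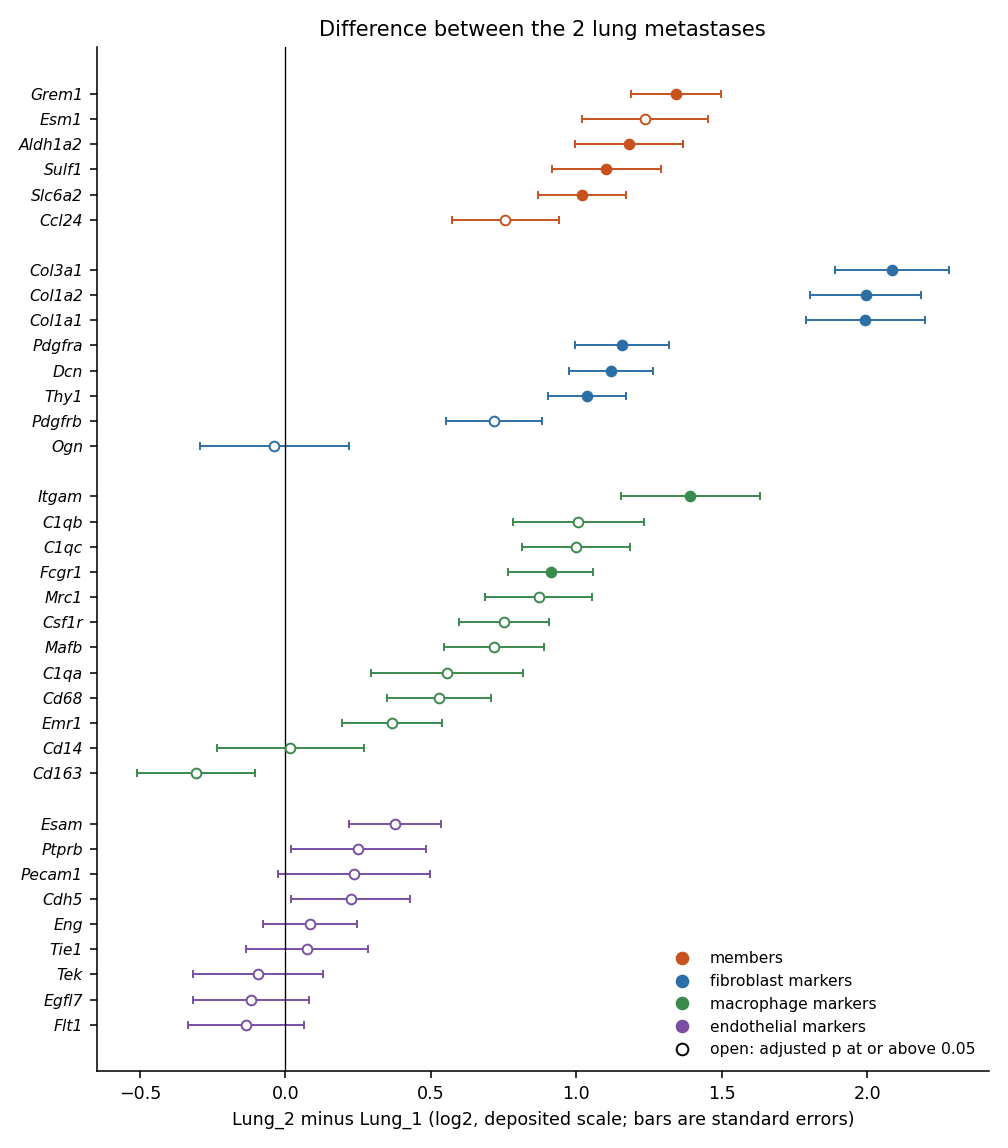
Lung_2 minus Lung_1 difference on the deposited log2 scale (horizontal axis, bars are standard errors) of the 6 members and of the tested fibroblast, macrophage and endothelial markers; filled points have an adjusted p under 0.05 in limma. The members lie at 0.76 to 1.34, 6 of 8 fibroblast and 2 of 12 macrophage markers are filled, and none of the 9 endothelial markers is.

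Macrophage markers summed to 1529 and 1606 counts in Lung_2 and 743 and 845 in Lung_1, against 750.2 to 898 in the tumors and 207 to 2382 in the clones. Against tumors, 4 of 12 tested rose in lung metastases and 1 fell, against 16.6% and 14.8% of all genes, with a median difference of 0.52. C1qc rose, with 45.8 to 185 counts in lung libraries and 5.84 to 13.6 in tumor libraries (limma, adjusted p = 0.00494), as did C1qb, Fcgr1 and Cd163, while Cd14 fell, with 201 to 251 counts against 221 to 425. Itgam, the integrin alpha M chain, and Fcgr1, a receptor for IgG, were the 2 of 12 called higher in Lung_2, against 0.774% of all genes. The median difference between Lung_2 and Lung_1 over the 12 was 0.73. As ratios of mean counts, the complement genes C1qa, C1qb and C1qc stood 3.03-fold, 2.88-fold and 2.94-fold higher in Lung_2, without a call, Cd14 had a ratio of 1.01, and Cd163 had the lowest, 0.711.

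Endothelial markers summed to 1836 to 2122 counts in lung libraries and 1262 to 1531 in tumor libraries. Of 9 tested, 4 rose in lung metastases, namely Eng, Tie1, Ptprb and Flt1, and 0 fell, against 16.6% and 14.8% of all genes, with a median difference of 0.35. Ptprb was low and uneven, with 15.3 and 0.743 counts in libraries A and B of Lung_1 and 13.2 and 9.89 in those of Lung_2. The defining genes Kdr, Emcn, Vwf, Cldn5, Erg, Sox17 and Robo4 were untested in lung metastases because of their low counts, and Kdr, a VEGF receptor, had 4.14 and 4.95 counts in Lung_2 and 12.6 and 0.743 in Lung_1, against 0 to 1.80 in the tumors. Pecam1 had 7.43 to 25.2 counts in lung libraries and 3.88 to 21.0 in tumor libraries, and was not called (limma, adjusted p = 0.168). Vwf, the von Willebrand factor of endothelium, had 0.825 to 9.11 counts in lung libraries and 0 to 2.34 in tumor libraries, and Cdh5, the cadherin of endothelial junctions, 3.71 to 17.4 against 0.902 to 6.64 (limma, adjusted p = 0.0747). Vwf and Cdh5 were higher in library A than in library B of each lung metastasis. Eng, Tie1 and Flt1 were also present in clones, Eng at up to 1410.1 counts there. None of the 9 was called between Lung_2 and Lung_1 by limma at an adjusted p under 0.05.

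Lung epithelium was near absent. The surfactant gene Sftpc had 0.743 to 6.60 counts in lung libraries and 0 to 2.91 in tumor libraries, and the summed lung epithelial markers were 534 to 639.5 counts in lung metastases, 585 to 636 in tumors and 473 to 1035 in clones. Of 5 tested 1 rose, Rtkn2, and 1 fell, Lamp3, both also present in every group. Eosinophil, lymphocyte and alveolar macrophage markers had 0 genes at the level needed for the test of lung metastases against tumors, and the eosinophil sum was 2.23 to 20.7 counts in lung libraries and 0 to 7.01 in tumor libraries. That sum was 20.7 and 16.6 in the A libraries of Lung_1 and Lung_2, which stood apart in genes detected, and 2.23 and 9.07 in their B libraries.

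Mesothelial markers gave 2 that rose, Bnc1 and Wt1, and 1 that fell, Msln, of 3 tested, against 16.6% higher and 14.8% lower over all genes. Bnc1 and Msln were also expressed in the clones, at medians of 691 and 2564 counts. Wt1, a transcription factor of mesothelium, had 8.17 to 25.7 counts in lung libraries and 0 in each tumor library (limma, adjusted p = 0.0019), and was not called without Lung_2. Smooth muscle and pericyte markers had 0 of 6 called in either direction, and Schwann cell markers 0 of 4. Neutrophil markers had 1 of 3 higher, S100a8. Adipocyte and erythroid markers had 0 called of 2 and 1 tested, skeletal muscle had 1 lower of 5, Tnni2, and cardiac muscle 1 higher, Ryr2, and 1 lower, Tnnt2, of 4. Ryr2 had 14.9 and 14.4 counts in the A libraries of Lung_2 and Lung_1, which stood apart in genes detected, and 0.825 and 0 in the B libraries. Wt1 and Ryr2, like Fcgr1 and Ptprb above, reached the minimum level only through lung libraries. They could hardly be called lower, so little is read from their calls. Among epithelial genes of the tumor cells, 7 of 9 fell in lung metastases, against 14.8% of all genes, with Epcam at 422 to 658 counts in lung libraries against 2268 to 4077 in tumor libraries.

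**Figure D4:**
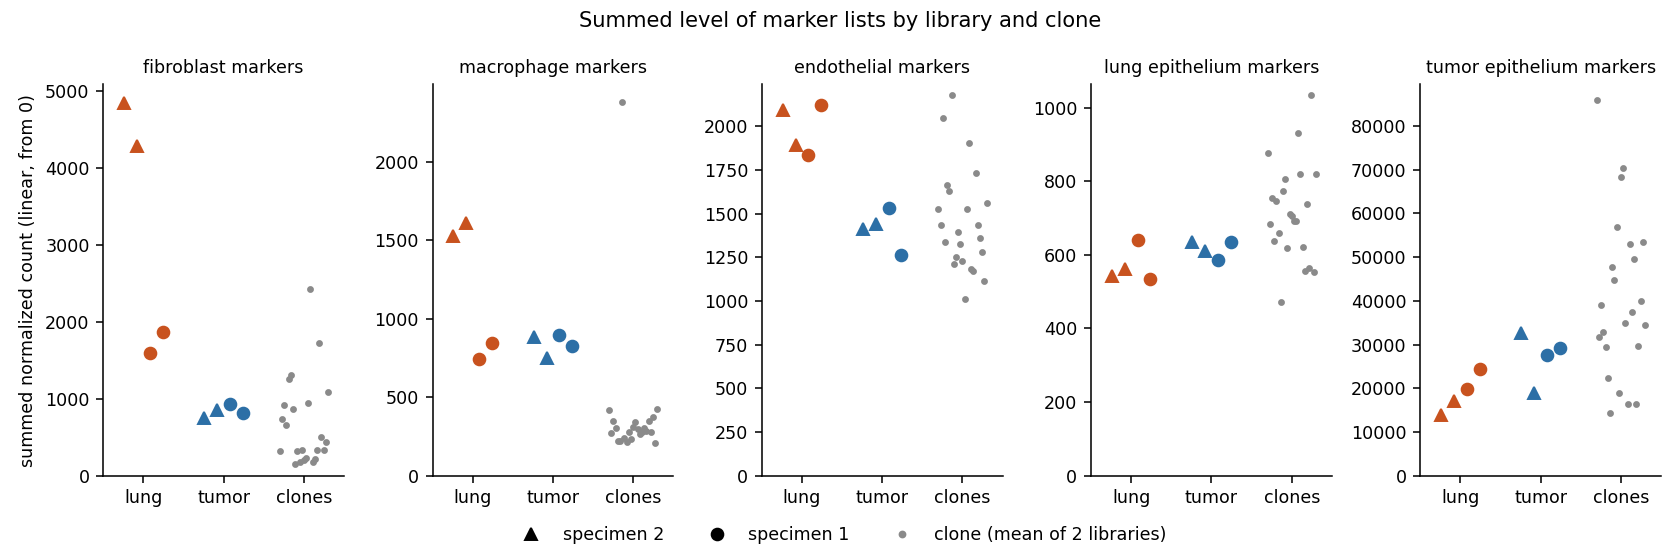
Summed normalized counts of 5 marker lists (vertical axes, linear from 0, each with its own scale) in 4 lung libraries (orange), 4 tumor libraries (blue) and 23 clones (gray); triangles are specimen 2 and circles specimen 1. Fibroblast markers reach 4854 in Lung_2 and 1870 in Lung_1, macrophage markers are higher in Lung_2 than in Lung_1, and lung epithelial markers stay between 534 and 639.5 in lung libraries.

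The pathways of the members were followed in 6 lists, read against the 16.6% of all genes higher and 14.8% lower in lung metastases. Around Esm1, in the list of sprouting endothelium and VEGF, 2 of 15 tested rose and 4 fell, with a median difference of -0.22. Angpt1, a ligand of the Tie2 receptor, had 681 to 1174 counts in lung libraries and 165 to 235 in tumor libraries (limma, log2 difference 1.89 ± 0.15, adjusted p = 0.000124), and the Notch ligand Dll4 had 349 to 413 against 135 to 165. Edn1, which encodes endothelin 1, had 1.49 to 5.79 counts in lung libraries and 83.5 to 113 in tumor libraries, and Apln, which encodes apelin, 535 to 646 against 872 to 1414. All 4 were also expressed in clones, whose highest values ran from 208 for Edn1 to 2542 for Apln.

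Around Grem1, in the BMP list, 2 of 19 tested rose and 2 fell in lung metastases, with a median of 0.13. The BMP-responsive genes Id1, with 551 to 812 counts in lung libraries against 179 to 309 in tumor libraries, and Id2 rose (limma, adjusted p = 0.000837 and 0.00262). Fst, which encodes the activin antagonist follistatin, fell, with 14.4 to 39.6 counts against 137 to 191, and so did Id4. Like Edn1 above, Id4 reached the minimum level only through tumor libraries, so each could hardly be called higher. Fstl1 and Bmper, secreted regulators of BMP signaling, were higher in Lung_2 than in Lung_1, Bmper with 76.2 and 90.7 counts against 21.6 and 23.8 (limma, log2 difference 0.94 ± 0.14, adjusted p = 0.0283).

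Around Sulf1, in the heparan sulfate list, 7 of 22 tested rose and 3 fell, with a median of 0.25. Sulf2, the other extracellular sulfatase, rose with 317 to 478 counts in lung libraries and 119 to 149.5 in tumor libraries (limma, log2 difference 1.16 ± 0.12, adjusted p = 0.000356). Unlike Sulf1 it was expressed in clones, at a median of 176 counts, and it was not called between Lung_2 and Lung_1 (limma, log2 difference -0.15, adjusted p = 0.99986). The core protein gene Sdc3 had 691 to 1233 counts against 174 to 304. Hs6st1, which adds the 6-O-sulfate that sulfatases remove, fell with 412 to 535 counts against 798 to 1062, and Gpc4, a glypican, with 283 to 498 against 504 to 930.0.

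Around Aldh1a2, in the retinoic acid list, 4 of 15 tested rose and 2 fell, with a median of 0.16. Cyp26b1, an enzyme that degrades retinoic acid, had 123 to 248 counts in lung libraries and 8.74 to 18.7 in tumor libraries (limma, adjusted p = 0.000326), and the receptor genes Rxra and Rara rose as well. Unlike Aldh1a2, all 3 were expressed in clones, Cyp26b1 at a median of 16.4 and up to 202 counts, within its lung range. The clone medians were 664 counts for Rxra and 1127 for Rara. Fabp5, a fatty acid-binding protein that also carries retinoic acid, and Rdh10, the retinol dehydrogenase that makes the substrate of Aldh1a2, fell. The sister enzymes Aldh1a1 and Aldh1a3 were too low to test, at 0 to 7.45 and 3.30 to 15.7 counts in lung libraries and 1.17 to 7.77 and 0.902 to 9.35 in tumor libraries.

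Around Slc6a2, in the noradrenaline list, 1 of 9 tested rose, the receptor gene Adra1b, and 1 fell, with a median of -0.04. The genes for noradrenaline synthesis were near 0, Th at 0 to 1.80 counts in lung libraries and 0 in each tumor library and Dbh at 0 to 0.898 in lung libraries and 0 to 2.34 in tumor libraries. Slc6a4, the serotonin transporter of the same family, had 6.29 to 19.0 counts in lung libraries and 12.3 to 31.1 in tumor libraries and was not called (limma, adjusted p = 0.117).

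Around Ccl24, in the list of eotaxins and type 2 immunity, 3 of 10 tested rose and 2 fell, with a median of 0.21. The cytokine Tslp rose, with 2998 to 4226 counts in lung libraries and 1158 to 1323 in tumor libraries (limma, adjusted p = 0.000227), and Il33 with 309.9 to 845 against 147 to 243 (limma, adjusted p = 0.00493), while the IL-33 receptor gene Il1rl1 fell. The related eotaxin Ccl11 had 0 to 4.14 counts in lung libraries and 0.902 to 2.34 in tumor libraries. Ccr3, the receptor of Ccl24, had 0 to 1.80 counts in lung libraries and 0 in each tumor library, both too low to test. Arg1, an enzyme of alternatively activated macrophages, was the gene of this list called higher in Lung_2, at 440.4 and 354 counts against 114 and 119 in Lung_1 (limma, adjusted p = 0.0142).

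Across all 22 lists, 59 genes were called between lung metastases and tumors, and 26 of them were still called without library A of Tumor_2. Cyp26b1, Angpt1, Dll4, Edn1, Fst, Id1, Id2, Sulf2, Sdc3, Tslp, Il33, C1qc, Pdgfra, Wt1 and Epcam were among those. Apln, Hs6st1, Gpc4, Fabp5, Rdh10, Rxra, Rara, Adra1b, Il1rl1, Id4, C1qb, Fcgr1, Cd163, Cd14, Eng, Tie1, Ptprb, Flt1, Rtkn2, S100a8, Ryr2 and Tnni2 were not called without it. With all of Tumor_2 left out 33 of the 59 were called, and with all of Tumor_1 left out 30, and Pdgfra, C1qc and Il33 were not among them in either fit, nor was Id2 without Tumor_1. With all of Lung_1 left out 52 were called, and Cd14, Cd163, Flt1, Ptprb, Ryr2 and Tnni2 were among those lost. With all of Lung_2 left out 51 were called, and Wt1, Fcgr1, Ptprb, Ryr2 and Tie1 were among those lost. Of 11 list genes called between Lung_2 and Lung_1, 0 were called without any 1 lung library. Of 29 list genes called between tumors and clones, 20 were still called without library A of Tumor_1 and 29 without its library B. Without library A of Tumor_2 27 were, and without its library B 20. Pecam1 and Tek, the endothelial markers called, were lost without library A of Tumor_1 and without library B of Tumor_2. C1qc was lost without the A library of either tumor.

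Of the 6 genes, 3 had a promoter window in RefSeq's table (GRCm38.p6), from 250 bases before to 50 after the start, and they are shown because the genes moved together across specimens. Capitals mark CCAAT and GGGCGG, the motifs found among the 3 searched on both strands, the third being TATAAA. The windows are Grem1 at chr2:113758599-113758898 on the minus strand, Aldh1a2 at chr9:71215539-71215838 on the plus strand and Esm1 at chr13:113209409-113209708 on the plus strand.
Grem1: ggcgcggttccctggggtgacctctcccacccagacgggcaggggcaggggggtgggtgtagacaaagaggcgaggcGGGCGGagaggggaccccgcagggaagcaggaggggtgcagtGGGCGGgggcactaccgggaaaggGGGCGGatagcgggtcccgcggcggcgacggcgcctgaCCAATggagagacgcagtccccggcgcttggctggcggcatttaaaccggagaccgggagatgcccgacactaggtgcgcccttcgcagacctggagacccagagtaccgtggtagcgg
Aldh1a2: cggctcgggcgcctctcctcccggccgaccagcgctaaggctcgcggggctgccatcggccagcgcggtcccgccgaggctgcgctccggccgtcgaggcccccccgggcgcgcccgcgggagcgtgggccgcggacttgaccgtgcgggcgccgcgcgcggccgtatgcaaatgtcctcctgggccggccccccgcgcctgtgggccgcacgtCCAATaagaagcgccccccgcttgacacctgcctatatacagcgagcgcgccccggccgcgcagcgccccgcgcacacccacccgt
Esm1: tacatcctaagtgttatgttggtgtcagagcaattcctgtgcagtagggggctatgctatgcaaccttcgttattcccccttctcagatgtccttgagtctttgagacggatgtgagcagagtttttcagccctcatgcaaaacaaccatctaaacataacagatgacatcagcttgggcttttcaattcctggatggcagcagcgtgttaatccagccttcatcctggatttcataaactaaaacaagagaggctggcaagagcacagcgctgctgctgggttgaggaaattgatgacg
The 3 windows had little in common. Grem1 held GGGCGG at positions -173, -131 and -107 from the start and CCAAT at -69, Aldh1a2 held CCAAT at -36, and Esm1 held none of the 3. Their GC content was 70.7%, 78.0% and 46.3% in Grem1, Aldh1a2 and Esm1, against a median of 52.7% over 32851 windows, and they had 28, 50 and 5 CpG pairs, against a median of 7.0. In all windows of that length, CCAAT was found in 37.4%, GGGCGG in 35.7% and TATAAA in 13.6%. A match is only a match of letters.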

How the data were processed

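RNA-seq libraries were made, per the labels' protocols, from column-purified and DNase-treated total RNA amplified with a NuGEN Ovation kit. Bowtie2, HTSeq, DESeq and the build mm10 are named in the submitters' processing notes, and the sources used here give no versions, settings or strand handling. The authors deposited log2 values of 23481 genes in 54 libraries, on a variance-stabilizing curve that puts a gene without reads at 5.03. Inverting that curve gave normalized counts, and 100% of values came out as whole reads within 0.01. These reads gave the depths. In 27 rows the symbol had become a date, and 0 columns lacked a sample.

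Genes with at least 10 normalized counts in at least 2 libraries of a comparison were tested on the deposited scale with limma 3.58.1 in R 4.3.3, two-sided, with a variance trend, Benjamini-Hochberg adjustment over all genes tested and a threshold of 0.05. Lung metastases were set against tumors with 1 mean per specimen, tumors against clones with 1 mean per specimen or clone, and Lung_2 against Lung_1 with libraries as replicates in a fit of all 8 specimen libraries. The fits were tested on simulated data. Libraries of a specimen or clone correlated at 0.981 to 0.998 across genes and were never identical. The values showed no pairing of lung and tumor specimens by number (correlation of deviations -0.099), though 2 specimens a group cannot exclude it. Counts were not available as a deposited unit, so no count model was run, and voom weights on recovered reads were an alternative.

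Of 322 entries in 16 marker and 6 pathway lists, 319 were in the table. The members and lists were chosen with earlier results of these data known. Named were the members, up to 2 genes per direction and list with a mean of at least 50 counts, partners of members, the 3 most alike genes per member, and the 10 top genes near 0 in clones with the members' neighbors in rank. Other list genes and Igfbp5 were named after their values were seen. Overlapping and antisense genes cannot be told apart without the strand setting. Protein sequences were not used here, and some genes of the lists are not reported here.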

Additional observations from a re-analysis of the deposited data

Results flagged for a closer look

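Esm1 in the orthotopic tumors had 1 library apart from the others, with 1.94 normalized counts (2 reads) in library A of Tumor_2 against 8.18 to 9.02 in the other 3. The gap to the nearest library was 0.881 of the group's whole range. The rule for this flag was set to pass about 1 group in 20 by chance if libraries were independent, and 12 groups of 4 libraries were looked at. The 4 libraries of a group are 2 from each of 2 specimens, so they are not independent.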

How the results depend on the processing

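For lung metastases against tumors, 2280 genes were higher and 2025 lower; the counts moved to 1459 and 1186 with no filter, 172 and 153 with B libraries only, 145 and 12 with all clones in the fit, and 1302 lower with A libraries only. Leaving out a library or specimen gave 354 to 2627 higher and 309 to 2278 lower. For tumors against clones, 576 were higher and 199 lower; log2(count + 1) gave 346 higher, no filter 2005 higher, a minimum of 50 counts 193 and 118, depth by total reads 1060 and 89, voom 904 higher and A libraries only 142 and 50. Left-out libraries or tumors gave 73 to 1257 higher and 0 to 634 lower. For Lung_2 against Lung_1, 106 were higher and 2 lower; log2(count + 1) gave 55 and 0, no filter 67 and 0, depth by total reads 63 and 1, only lung libraries 366 and 33, and a minimum of 50 counts, voom and no trend each 1 lower. Left-out libraries gave 1 to 376 higher and 0 to 22 lower. With the library letter as a replicate block the counts were 38 and 0, and Aldh1a2 and Grem1 were the members called. The specimen number as a replicate block gave 2398 and 2074. Tnni2 turned to 0.0265 (adjusted p = 0.933 in limma) with A libraries only. Of 975 checks on named genes, 775 kept their side of the threshold, 190 lost and 9 gained a call. The cause of these shifts was not tested. Among genes near 0 in clones, 108 of 256 were higher in lung metastases at under 5 counts per clone, 212 of 1124 at under 20 and 138 of 405 at under 10 in every clone library, against 153 of 534. With 2 specimens a group and 3 to 28 tumor reads per member, the size of the lung and tumor gap is loosely fixed.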
